A study of Danio rerio with 17 samples.

Results

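The keratin-gate barcodes of the larval zebrafish optic tectum were all droplet barcodes with at least 600 genes and at most 10% mitochondrial UMIs that held at least 1 UMI of at least 2 of the 4 genes *krt8*, *krt18a.1*, *icn* and *fabp11a*. They numbered 828 of the 59700 barcodes that passed the same filters, and the other 58872 served as the comparison. A UMI is a unique molecular identifier, so that each captured RNA molecule is counted once. The optic tectum and torus longitudinalis of untreated wild-type larvae were dissected, pooled over several larvae in each of 11 batches, and captured in droplets with the 10x 3′ chemistry. Larvae were 6 days post fertilization (dpf) in batches 5, 6, 7 and 10 and 7 dpf in batches 1, 2, 3, 4, 8, 11 and 12. Age was the only label that separated the samples, and the batch served as the replicate. Whether cells of unclear identity with these 4 transcripts resembled epidermis, meninges or vessel endothelium was judged from the genes that did not choose them.

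Keratins are intermediate filament proteins. *krt8* and *krt18a.1* encode keratins of the pair that simple epithelia use, *icn* encodes ictacalcin, a calcium-binding S100 protein known from fish epithelia, and *fabp11a* encodes an intracellular fatty acid-binding protein. Several non-neuronal cell types lie next to tectal neurons: the skin above the brain, whose outer layers use keratins of their own, the meninges with collagen-producing fibroblasts and lymphatic-like endothelial cells, and brain capillaries, whose endothelium forms the blood–brain barrier with tight junctions and selective transporters. During the dissection the skin around the brain was removed.

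The 12 droplet lanes, of which batch 11 took 2, held between 5073733 and 88294858 UMIs and together 87881 deposited barcodes. Of the other barcodes, 90.5% held a UMI of the neuron list after thinning to 1000 UMIs each. Keratin-gate barcodes were deeper, with a median of 6646.5 UMIs against 2391. The deepest held 1176083 UMIs of 18664 genes, 62 of them exceeded 50000 UMIs, and those barcodes held 88.1% of the keratin-gate UMIs in batch 11 and 87.9% in batch 12. Whether such a barcode held a single cell was not tested. The study's upper limits of 4000 genes and 7500 UMIs would have left out 46.6% of the keratin-gate barcodes and 10.4% of the others. A caller of simulated doublets marked at most 0.955% of the barcodes of a lane and 0 in batch 10, too few to be used, so no doublets were removed. The share among the highest-scoring 10% of each lane was 9.42% of keratin-gate and 10.0% of other barcodes. Any pair of lanes shared at most 48 barcode sequences, and 0 keratin-gate barcodes occurred in more than 1 lane.

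Barcodes of the gate made up between 0.451% and 6.90% of a batch. At 6 dpf the shares were 1.43% in batch 5, 1.97% in batch 6, 1.86% in batch 7 and 0.451% in batch 10. At 7 dpf the lowest share was 0.582% in batch 11, the median 2.25% and the highest 6.90% in batch 2. The ranges at 6 dpf and 7 dpf overlapped, and the lowest share of all was at 6 dpf. The mean was 1.43% ± 0.693 (SD, n = 4) at 6 dpf and 3.06% ± 2.53 (SD, n = 7) at 7 dpf, and the difference of 1.63 percentage points did not pass an exact two-sided permutation test over 330 splits (p = 0.261). Within the 8 batches sequenced on the HiSeq instrument the difference was 1.96 percentage points (exact permutation p = 0.286), and without batch 2 it was 0.992.

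**Figure D1:**
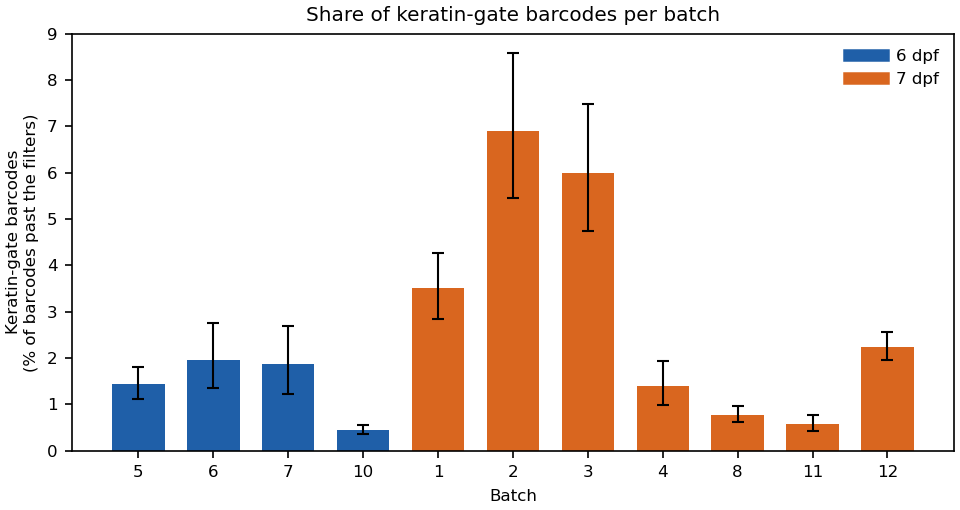
Keratin-gate barcodes as a percentage of the barcodes past the filters (y axis) in each of the 11 batches (x axis), coloured by age. Bars show the share and error bars its exact binomial 95% interval, which covers counting error only; the highest shares, 6.90% and 6.00%, were in batches 2 and 3, and the 7 dpf batches 8 and 11 were below 1%.

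The gate genes themselves were not shared evenly. At least 1 UMI of *krt8* was found in 82.4% of the 828 barcodes, of *fabp11a* in 83.2%, of *krt18a.1* in 68.4% and of *icn* in 36.2%, which describes the choice and is no finding. The combination of *krt8*, *krt18a.1* and *fabp11a* without *icn* held 177 barcodes, all 4 genes 176, *krt8* with *fabp11a* 175, and *krt8* with *krt18a.1* 100. The remaining 7 combinations held between 7 and 76 barcodes each.

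To measure each gate gene where it had not chosen the barcodes, barcodes were chosen by at least 2 of the other 3 genes. Counts were summed per batch without thinning. The level of *fabp11a* in the 537 barcodes so chosen ranged over the batches from 2.38 to 175 UMIs per 10000 (median 51.0), against 0.061 to 1.08 (median 0.125) in all other barcodes. For *krt18a.1*, in 645 barcodes, it ranged from 1.42 to 31.7 (median 13.3) against 0.011 to 0.195. For *krt8*, in 528 barcodes, it ranged from 1.36 to 18.5 (median 7.46) against 0.0297 to 0.3. These 3 genes did not overlap between the groups in any batch. *icn*, in 756 barcodes, ranged from 0.263 to 28.3 (median 6.03) against 0.042 to 1.22, so that its ranges overlapped. The mean log2 ratio over the 11 batches was 6.93 ± 1.94 (SD) for *fabp11a*, 5.38 ± 1.33 for *krt18a.1*, 4.72 ± 1.07 for *krt8* and 3.64 ± 1.8 for *icn*. Each gene was higher in 11 of 11 batches, and the exact two-sided sign-flip test gave p = 0.000977 for each before and after Benjamini-Hochberg adjustment over the 4 genes, the smallest value that 11 batches allow. Each of the 4 transcripts was thus higher in barcodes chosen by the other 3, *icn* with the smallest ratio. The 4 genes were put into the gate with earlier results of these data known. The test therefore describes the gate and gives it no independent support.

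Identity was judged next from 20 marker lists. For a view that gives each barcode the same weight, all barcodes were thinned at random to 1000 UMIs, which left out 9 keratin-gate barcodes and 4778 others. The summed level of the endothelium list, which holds receptors, junction proteins and transcription factors of blood vessels, was 27.4 ± 14.7 UMIs per 10000 in keratin-gate barcodes (mean ± SD, n = 11 batches, lowest 0.260 in batch 8, highest 53.2 in batch 3) and 1.85 ± 0.702 in the others. It was higher in 10 of 11 batches, and batch 8 fell below its own other barcodes, which held 2.00. The blood–brain barrier list, made of transporters and tight-junction genes, was at 19.6 ± 7.77 against 3.39 ± 0.591, and the basement membrane list, the collagens and laminins on which epithelia and vessels rest, at 9.62 ± 3.61 against 0.820 ± 0.251. Neither of these 2 lists overlapped between the groups. For the barrier list the gap was narrow, with 4.42 in keratin-gate barcodes of batch 8 and 4.37 in the others of batch 3.

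The lists of neighbouring tissues moved less evenly. The lymphatic-like list was at 5.38 ± 3.34 against 0.517 ± 0.254 and higher in 11 of 11 batches, although its ranges overlapped. The meninges list was at 44.8 ± 45.7 against 7.31 ± 7.66, from 4.80 in batch 12 to 130 in batch 11, and higher in 9 of 11. The epidermis list, which holds keratins, claudins and cornified-envelope genes of the outer skin, was at 13.1 ± 27.6 against 3.10 ± 4.06 and was higher in 5 of 11 batches. Its mean was carried by batch 2 at 90.1 and batch 8 at 36.0, while the median batch held 2.50 and the other batches at most 4.85. The neuron list was at 10.1 ± 8.73 against 48.1 ± 13.7, lower in 11 of 11. Each value is a mean over barcodes and does not separate fewer barcodes with such RNA from less of it per barcode. Pooled over batches, 44.7% of keratin-gate and 90.5% of other thinned barcodes held a UMI of the neuron list.

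**Figure D2:**
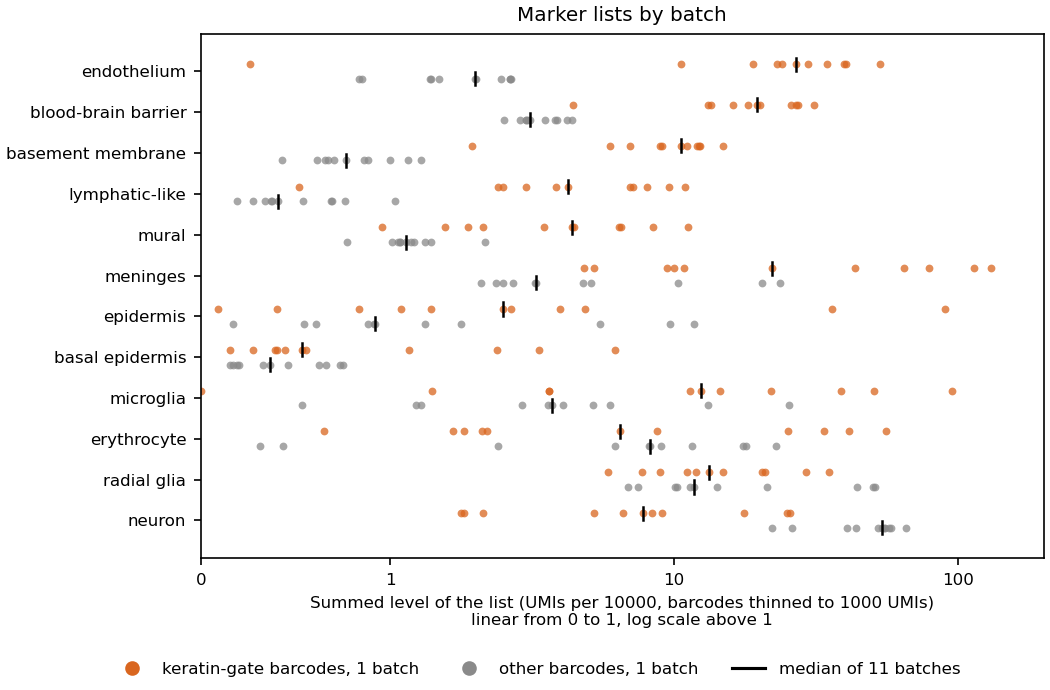
Summed level of 12 marker lists (x axis, UMIs per 10000 after thinning to 1000 UMIs, linear from 0 to 1 and logarithmic above) in keratin-gate (orange) and other barcodes (grey), 1 point per batch, with the median of 11 batches as a line. The blood–brain barrier and basement membrane lists do not overlap between the groups, the former only narrowly (4.42 in batch 8 against 4.37). The endothelium list is separated except in batch 8 (0.260), and the epidermis list overlaps over most of its range.

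The levels changed with the number of gate genes. After thinning, at least 3 genes of the endothelium list were found in 0.115% of barcodes with 0 gate genes, in 0.904% with 1, in 10.4% with 2, in 34.6% with 3 and in 90.3% with all 4. The barcodes just outside the gate numbered 2928 and those just inside 423, of which 2766 and 415 were deep enough to be thinned. Median depth went from 3632 UMIs with 1 gate gene to 5852 with 2, 7216 with 3 and 7362 with 4, so depth moved with the number of gate genes, and its part in this order was not tested. The epidermis list went the other way above the gate, from 19.4 UMIs per 10000 with 2 gate genes to 9.30 with 3 and 1.42 with 4. Microglia genes were at 54.8 with 2 gate genes, 4.25 with 3 and 1.70 with 4.

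UMI counts of keratin-gate and of other barcodes were then summed per batch and compared over the 11 batches with the quasi-likelihood test of edgeR, with the batch as a block, and adjusted by Benjamini-Hochberg over 19261 genes. A gene was called at an adjusted p below 0.05 and a change of at least 1 on the log2 scale. The gate genes were left out of the test. By this rule 12.8% of all genes tested were higher (2473) and 18.6% were lower (3577) in keratin-gate barcodes. These shares are the background for each count of list genes from this fit below. Against 111 to 1046 others per batch drawn nearer in depth, 1617 of 15586 genes were higher and 1493 lower, so that higher calls outnumbered lower ones. This draw was only approximate, with medians of 9907 UMIs in keratin-gate and 6033 in drawn barcodes of batch 1, and it also had fewer barcodes and genes, so the part of depth was not tested on its own.

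Of the 22 endothelium genes tested, 20 rose and 0 fell, with a median log2 fold change of 5.06 against -0.11 over all genes. *kdrl*, a receptor for vascular endothelial growth factor, was at 0.00662 to 4.28 UMIs per 10000 in keratin-gate barcodes of the 11 batches (median 1.15) and at 0.00604 to 0.151 in the others (median 0.0406). It was higher in 10 of 11 batches, all but batch 8, with a log2 fold change of 4.53 ± 0.50 (SE, adjusted p = 5.2e-07). *pecam1*, an adhesion molecule of endothelial cells, was at 0 to 3.18 (median 1.05) against 0 to 0.0071 (log2 fold change 7.18 ± 0.53, adjusted p = 9.29e-09), again with batch 8 at 0. *cdh5*, the cadherin of endothelial junctions, was at 0.0132 to 5.46 (median 1.78) against 0.0302 to 0.277 (4.03 ± 0.61, adjusted p = 2.02e-05). The transcription factor *sox18* was at 0 to 0.803 (median 0.146) against 0 to 0.00305 (7.46 ± 0.47, adjusted p = 3.21e-09). The genes that did not pass were *robo4*, with a log2 fold change of 0.91 ± 0.41, and *plvapa*, with -0.24 ± 0.65. *plvapa* and *plvapb* encode relatives of a component of fenestrae, the pores of leaky vessels. *plvapb* was at 0 to 1.97 UMIs per 10000 (median 0.554) against 0.00248 to 0.0318 and rose, higher in 10 of 11 batches (4.59 ± 0.63, adjusted p = 5.9e-06). Between 19 and 21 endothelium genes rose when any batch was left out, batch 8 included, and 20 of 21 tested rose against the others drawn nearer in depth.

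Genes of the blood–brain barrier rose with them, 8 of 12 tested. *slc2a1a*, the glucose transporter of brain capillaries, was at 0 to 4.99 UMIs per 10000 (median 0.711) against 0.00216 to 0.0207 (log2 fold change 6.59 ± 0.64, adjusted p = 1.6e-07). *slco1d1*, an organic anion transporter, was at 0.0331 to 4.89 (median 1.86) against 0.00604 to 0.0514 (5.83 ± 0.61, adjusted p = 3.1e-07). The efflux pump *abcb4* was at 0 to 3.54 (median 0.967) against 0.00216 to 0.0661 (5.64 ± 0.65, adjusted p = 8.44e-07). For all 3 the lowest keratin-gate value was that of batch 8. *slc16a1a*, a carrier of lactate, and the tight-junction genes *cldn5a* and *cldn5b* also rose, by 5.96, 2.99 and 2.41 on the log2 scale. The lipid transporter *mfsd2aa* did not pass the test (0.68 ± 0.41).

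The basement membrane list rose as a whole, 9 of 9 tested, with a median log2 fold change of 3.71. *col4a1*, the main basement membrane collagen, was at 0.00662 to 1.92 UMIs per 10000 (median 1.16) against 0.0058 to 0.0222 (log2 fold change 5.97 ± 0.41, adjusted p = 4.53e-09). *sparc*, a collagen-binding secreted protein, was at 0.611 to 8.06 (median 2.32) against 0.0932 to 0.479 and did not overlap (3.71 ± 0.30). Among 12 ligands and receptors of vessel growth, 5 rose and 1 fell. The chemokine *cxcl12b* was at 0.172 to 24.0 (median 2.67) against 0.0054 to 0.0297, with no overlap (7.84 ± 0.45, adjusted p = 7.15e-10). Endothelin *edn2* rose by 6.21 ± 0.66, angiopoietin *angpt2a* by 5.74 ± 0.51 and the pericyte-recruiting growth factor *pdgfbb* by 4.58 ± 0.47. The guidance receptor *nrp1a*, which neurons also use, fell by 1.59 on the log2 scale.

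Genes listed for neighbouring cell types of the vessel wall and the meninges also rose. The median log2 fold change was 2.71 for the lymphatic-like, 1.25 for the mural and 1.97 for the meninges list, against 5.06 for endothelium. Single genes did not all follow this order, as *foxc1a* of the meninges list rose by 6.39 and *kdrl* by 4.53. Of the lymphatic-like list 4 of 5 rose, among them *lyve1b*, a hyaluronan receptor (median 0.64 against 0.0241 UMIs per 10000, log2 fold change 4.48 ± 0.57). Of the mural list, the pericytes and smooth muscle of vessels, 5 of 9 rose, including the platelet-derived growth factor receptor *pdgfrb* (0.375 against 0.0643, 2.62 ± 0.41). Of the meninges list 11 of 17 rose. *epd*, which encodes the secreted meningeal protein ependymin, was at 0.272 to 126 (median 4.30) in keratin-gate barcodes and at 0.143 to 2.96 (median 0.446) in the others, higher in 9 of 11 batches (3.63 ± 0.72, adjusted p = 3.42e-04). All 9 neuron genes fell, led by the presynaptic protein gene *sncb* (0.179 against 2.62, log2 fold change -3.44 ± 0.28), and 4 of 5 oligodendrocyte genes fell.

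Epidermal genes showed no common direction. Of 19 tested, 3 rose (*epcam*, *spint2* and *cfl1l*) and 2 fell (*cyt1* and *cyt1l*), with a median log2 fold change of 0.48. Over all genes tested 12.8% rose and 18.6% fell, so these counts lay near the background. The surface keratin *krt4* was at 0.00543 to 4.95 UMIs per 10000 (median 0.102) in keratin-gate barcodes and at 0.0151 to 2.69 (median 0.121) in the others. Its groups overlapped, it was higher in 4 of 11 batches and its log2 fold change of -0.99 ± 0.82 did not pass (adjusted p = 0.348). *cyt1*, a keratin of the outermost skin layer, was at 0 to 8.21 (median 0.0388) against 0.00648 to 2.55 (median 0.255), lower in 9 of 11 batches and highest in batch 2 (-2.81 ± 1.00, adjusted p = 0.0266). This list depended on how barcodes were weighted. With every barcode thinned to 1000 UMIs, 10 of 17 rose and 0 fell, beside 1455 higher and 3780 lower of all 12646 genes tested. Within the study's upper limits 7 of 18 rose and 0 fell, beside 1882 higher and 3394 lower of 16408. That fit also left out barcodes with a UMI of *gng8*, *kiss1* or *crygm2d13*, so it changed more than depth. The 2 lower calls were lost without batch 3, without batch 11 or without batch 12. Among desmosome and junction genes, 6 of 9 rose and 1 fell. Desmoplakin *dspa*, which anchors keratin filaments to junctions, was at 0.0199 to 1.2 (median 0.351) against 0.00448 to 0.0347 (log2 fold change 4.54 ± 0.32, adjusted p = 5.63e-09) and higher in 11 of 11.

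**Figure D3:**
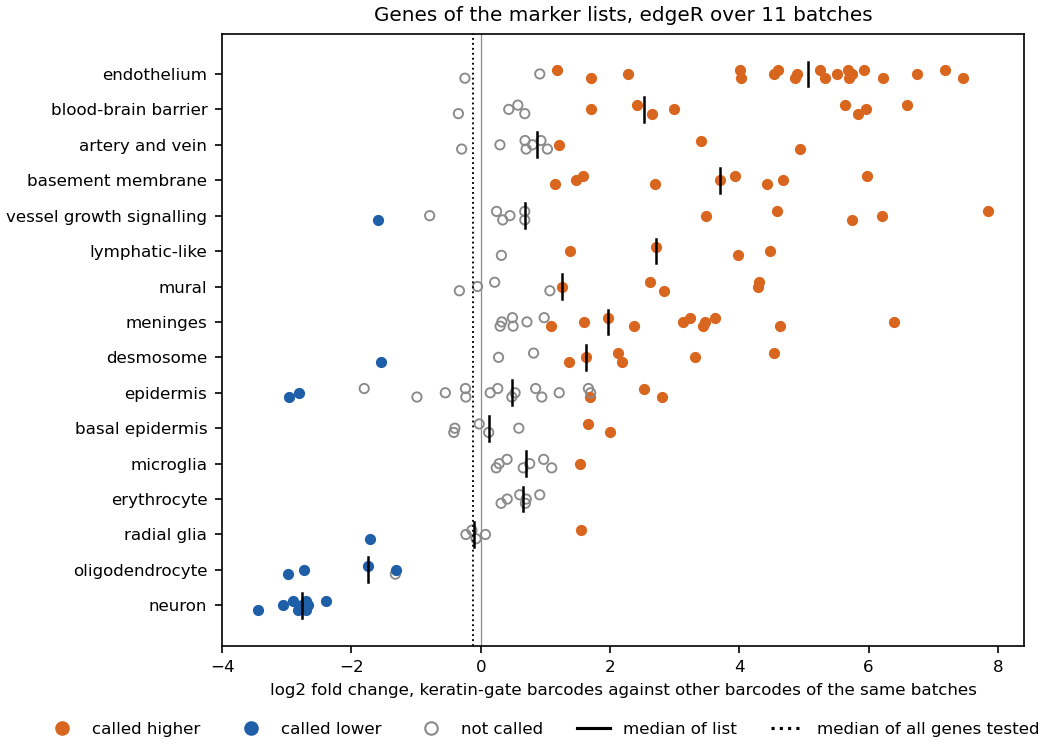
log2 fold change between keratin-gate and other barcodes (x axis) for the genes of 16 marker lists (y axis), 1 point per gene, filled where called by edgeR over 11 batches, with the median of each list as a line and the median of all 19261 genes dotted at -0.11. Endothelium genes centre on 5.06, basement membrane genes on 3.71, epidermis genes on 0.48 and neuron genes on -2.76.

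Beyond the lists, 946 of the higher and 2396 of the lower genes changed in the same direction in every batch after scaling. Keratin-gate sums were smaller, so a rare gene can read 0 in them, and these counts cannot be compared between directions. Among the 10 with the largest rise were *krt94*, *cxcl12b*, *si:dkey-126g1.9*, *zgc:158423*, *adma*, *foxc1a*, *she*, *col4a1* and *abcc2*. *krt94*, a further keratin gene that was not part of the gate, was at 0.0199 to 10.1 UMIs per 10000 (median 1.06) against 0.00108 to 0.0121, with no overlap and the largest log2 fold change of these 10 (8.00 ± 0.62, adjusted p = 1.45e-08). *foxc1a*, a forkhead factor of head mesenchyme and vessel-associated cells that also stands in the meninges list, was at 0.0265 to 0.918 (median 0.181) against 0 to 0.0101 (6.39 ± 0.41). *adma* encodes the vasoactive peptide adrenomedullin (6.72 ± 0.44), *abcc2* an efflux transporter (5.88 ± 0.49), and *she* an adaptor protein of endothelial cells (6.22 ± 0.38).

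The 10 with the largest fall in every batch were *si:ch211-131k2.3*, *baiap2l2a*, *sst1.1*, *aimp1b*, *hapln2*, *cckb*, *si:dkey-219c10.4*, *olfm3b*, *sncb* and *styk1a*. Several of these are transcripts of neurons: *cckb* encodes the neuropeptide cholecystokinin (median 0.0194 against 0.519 UMIs per 10000, log2 fold change -3.70 ± 0.34) and *sst1.1* somatostatin, of which keratin-gate barcodes held 1 UMI and the others 364. *si:ch211-131k2.3* had 0 UMIs in keratin-gate barcodes and 206 in the others. With 3 UMIs over all batches as the floor, it was at least 5.86-fold higher in the others. Of these 10 genes, all but *cckb* and *sncb* had a keratin-gate median of 0 over the batches. The keratin-gate sum of batch 6 held 196180 UMIs against 4974503 in the others. A rare gene can read 0 in so small a sum, so a fall in every batch says little for these genes.

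The gate was then turned round: barcodes were chosen by at least 3 genes of a marker list after thinning, which uses none of the gate genes, and the gate genes were read in them. Of 365 barcodes chosen by endothelium genes, 281 (77.0%) were keratin-gate barcodes, and these made up 34.3% of the gate. After thinning, *fabp11a* was found in 72.3% of the 365, *krt18a.1* in 58.6%, *krt8* in 54.8% and *icn* in 37.5%. In the 33836 barcodes chosen by neuron genes, which should lack these transcripts, the shares were 0.748%, 0.266%, 0.479% and 0.686% at the same thinned depth. Before thinning, the median depth was 3713 UMIs in the former and 2401 in the latter.

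Endothelial barcodes differed between batches in these shares. *fabp11a* was found in 63.2% to 100% of them in the HiSeq batches that had any, in 81.5% in batch 12, in 36.8% in batch 11 and in 13.2% in batch 10, where only 7 of 38 belonged to the gate. Batch 8 had 0 such barcodes, although it was the third largest in barcodes past the filters. *krt94*, at 4.58 UMIs per 10000, was detected in endothelial barcodes and had 0 UMIs in the epidermal ones. *krt4* was at 0 in the former and at 136 in the latter. *krt4* is itself a gene of the epidermis list that chose the epidermal barcodes, so its level there describes the choice and is no finding.

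Epidermal barcodes had another pattern of gate genes. Of the 71 chosen by epidermis genes, 19 belonged to the gate (26.8%). *icn* was found in 59.2% of them after thinning, at 45.8 UMIs per 10000, while *krt8* was found in 18.3%, *krt18a.1* in 5.63% and *fabp11a* in 2.82%. *icn* was thus found in endothelial barcodes, most of which held *fabp11a*, and in epidermal barcodes, few of which did. Lymphatic-like barcodes differed again. Of 58, *krt8* was found in 34.5%, *krt18a.1* in 29.3%, *fabp11a* in 3.45% and *icn* in 0, before thinning as well. This allows a share of up to 5.17% of barcodes with an *icn* UMI and does not limit the share expressing the gene. Of 244 barcodes chosen by meninges genes 21 belonged to the gate. Of these 244, 147 also held at least 3 radial glia genes and 75 at least 3 neuron genes, so the set was not meningeal alone. Of those 147 barcodes 0 belonged to the gate, and of those 75, 3. Of 334 microglial barcodes 31 belonged to the gate. Endothelial and lymphatic-like lists shared 26 barcodes, endothelial and epidermal lists 1, and endothelial and neuron lists 82. In 338 of the 819 thinned keratin-gate barcodes (41.3%), none of the 9 lists used in this way reached 3 genes, so their type was not assigned.

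**Figure D4:**
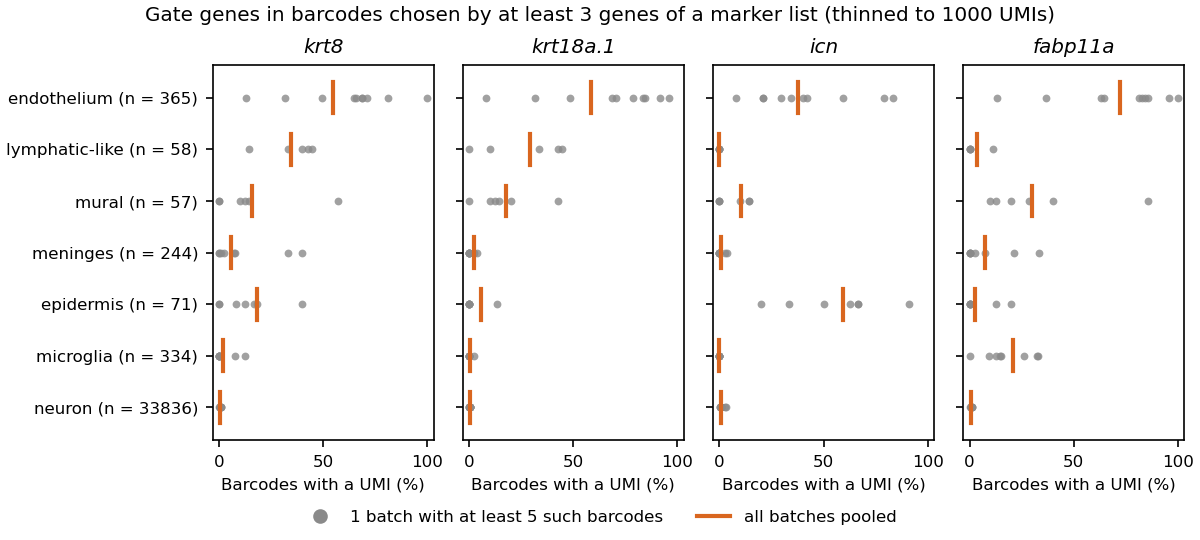
Percentage of barcodes with a UMI of each gate gene (x axes) among barcodes chosen by at least 3 genes of a marker list (y axis), all thinned to 1000 UMIs, with grey points for batches holding at least 5 such barcodes and an orange line for all batches pooled. All 4 genes are found in endothelial barcodes, with *fabp11a* at 72.3%; epidermal barcodes hold mainly *icn* at 59.2%, and neuronal barcodes are below 1% for each gene.

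Clustering of the 828 barcodes without the gate genes gave 10 clusters, which are described without a test. A list marker was counted where at least 10% of a cluster held it after thinning, at a log2 level at least 1 above all other thinned barcodes. Those barcodes were mostly outside the gate. The leading genes were ranked by the same comparison, so neither shows a difference from the other clusters. Names were given by judgement from these markers and the 10 leading genes, after the clusters had been seen, and clusters with fewer than 3 markers of any cell type list were left unnamed. Clusters 2 (166 barcodes) and 3 (121) were endothelium-like, with 16 and 19 endothelium markers and the leading genes *zgc:158423* and *cxcl12b* in both. None of these markers was among the 10 leading genes of cluster 3, which included *edn2* and *krt94*, and 4 erythrocyte markers were raised in it as well. That cluster held *fabp11a* at 200 UMIs per 10000, *krt18a.1* at 41.2, *icn* at 26.7 and *krt8* at 20, each the highest of the 10 clusters. It also held the globin list at 81.2, against at most 4.85 in any other cluster, and 24 of its 121 barcodes were among the highest doublet scores. The part of red cell RNA and of doublets in these barcodes was not tested. Cluster 2 was shallower (median 2205 UMIs against 8031), and 83.1% of it came from batch 12, so that batch and cluster cannot be told apart there. It held the neuron list at 26.0 UMIs per 10000 against 2.58 in cluster 3. The neuron gene *elavl3* was found in 45.7% of it after thinning, against 3.33% of cluster 3. The part of neuron RNA in cluster 2 was not tested.

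The other named clusters were smaller. Cluster 6 (52 barcodes) was lymphatic-like with 5 such markers, beside 5 endothelium and 3 meninges markers. It was led by *lyve1b*, with *mrc1a* and *flt4* among its leading genes, *krt8* in 100% and *icn* at 0 UMIs per 10000 after thinning. Cluster 7 (50) was meninges-like with 5 such markers and led by *epd*. The meninges list was at 469 UMIs per 10000, of which *epd* alone made up 449, and 1 list gene was among its 10 leading genes. Cluster 8 (34) was microglia-like and led by *apoc1* and *ccl34b.1*, with the microglia list at 664. Its gate pattern was mostly *krt8* with *fabp11a*, found in 88.2% and 97.1%, at the low thinned levels of 0.882 and 6.18 UMIs per 10000 and a median depth of 16044 UMIs.

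The other 5 clusters were left unnamed and held 405 barcodes. Cluster 1, the largest with 185 barcodes, held *epcam*, *cxcl18b* and *vim* among its leading genes, and its epidermis list stood at 53.4 with only 1 marker past the limit. It had a median depth of 16193 UMIs and 32 barcodes over 50000, and 31.9% of it came from batch 8, where it took 59 of 78 barcodes. Cluster 4 (86) had the neuron list at 51.6 beside endothelium at 9.38, and 22 of its barcodes were among the highest doublet scores, whose part was not tested. Cluster 5 (82) was led by the heat-shock gene *hspb1* and held the stress gene *atf3* among its leading genes, with 43.9% from batch 1. Cluster 9 (33) was led by *ndufa4l2a* and held *pdgfrb* among its leading genes, with 6 mural beside 14 endothelium markers, so that it was given neither name, and the lists at 50.6 and 45.2 UMIs per 10000. Cluster 10 (19) was led by *rspo1*, *fabp7b* and *col2a1a*, with 5 radial glia markers, the radial glia list at 100 and 0 endothelium UMIs. None of its markers was among its leading genes. The same held for cluster 3, which was named, so cluster 10 was left unnamed by judgement alone.

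**Figure D5:**
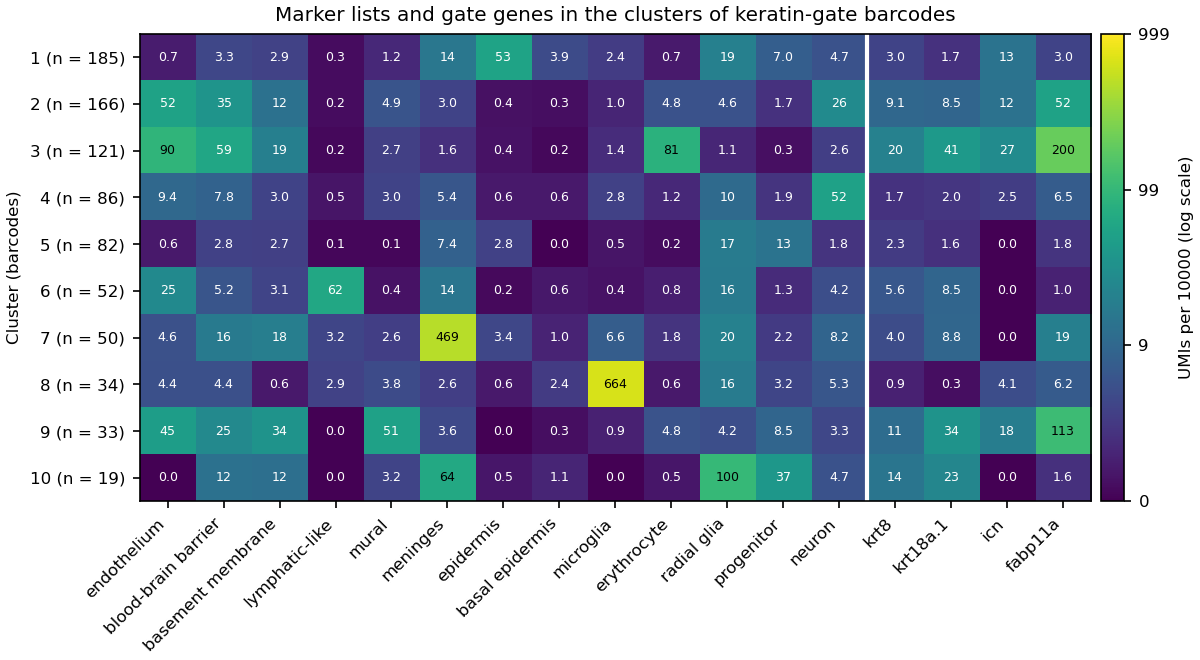
Summed level of 13 marker lists and level of the 4 gate genes (columns, UMIs per 10000 after thinning, colour on a log scale) in the 10 clusters of keratin-gate barcodes (rows, with the number of barcodes). Clusters 2, 3 and 9 hold endothelium genes at 45.2 to 90.4 UMIs per 10000, and cluster 6 lymphatic-like genes at 61.7. Cluster 7 holds meninges genes at 469, of which *epd* makes up 449. Cluster 8 holds microglia genes at 664 and cluster 1 epidermis genes at 53.4.

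The last comparison asked whether *fabp11a* and *icn* marked different barcodes within the gate. *fabp11a* without *icn* was found in 428 keratin-gate barcodes, *icn* without *fabp11a* in 39, both in 261 and neither in 100. Median depth was 10025 UMIs with *fabp11a* alone and 2907 with *icn* alone. A shallow barcode is more likely to lack a UMI of either gene, and the part of depth in this split was not tested. Of the 261 with both, 98 lay in cluster 2 and 90 in cluster 3. Of the 39 with *icn* alone, 20 lay in cluster 1, 9 in cluster 4, 7 in cluster 2 and 0 in cluster 3. Of the 428 with *fabp11a* alone, 127 lay in cluster 1, 62 in cluster 5, 60 in cluster 2 and 30 in cluster 3. Cluster 1 thus held the most barcodes of either kind. Only batches 2, 8 and 10 held at least 5 barcodes of each kind (31 against 9, 58 against 5 and 53 against 7), and edgeR's quasi-likelihood test was run on these 3 batches with the batch as a block. Of 2980 genes tested, 2.75% were higher (82) and 3.49% lower (104) in barcodes with *fabp11a* alone. Calls were made at the same thresholds as above.

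Of the 19 epidermis genes listed, 17 passed the filter on low counts, which a gene can pass through the kind of barcode where it is high. All 17 were called lower in barcodes with *fabp11a* alone, that is, higher in those with *icn* alone, with a median log2 fold change of -8.94 against 0.33 over all genes. Not all were lower in batch 10. Its *icn* barcodes held 0 UMIs of *cyt1*, *cyt1l*, *krt17*, *icn2*, *cldne*, *evpla*, *ppl*, *anxa1c* and *scel*. Its *fabp11a* barcodes held UMIs of *cyt1*, *krt17*, *icn2*, *evpla* and *anxa1c*. For these genes the calls rest on batches 2 and 8. *krt4* was at 0.0267 UMIs per 10000 in *fabp11a* barcodes and 77.5 in *icn* barcodes of batch 2, at 0.00828 and 45.5 in batch 8, and at 0.0108 and 2.33 in batch 10. The 2 kinds did not overlap, with 3 UMIs against 496 in all and a log2 fold change of -10.01 ± 1.02 (SE, edgeR adjusted p = 3.56e-19). *epcam*, an epithelial adhesion molecule, was at 0 and 21.4 in batch 2, at 0 and 11.8 in batch 8, and at 0.0108 and 1.75 in batch 10 (-9.45 ± 1.16, edgeR adjusted p = 2.98e-13). Claudin *cldnb* had 0 UMIs in *fabp11a* barcodes and 105 in *icn* barcodes, at least 819-fold higher in the latter with 3 UMIs as the floor over the 3 batches. *cyt1* was at 129 and 160 UMIs per 10000 in *icn* barcodes of batches 2 and 8 and at 0 in those of batch 10, where *fabp11a* barcodes held 0.0108.

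Further genes of the lower side were the water and glycerol channel *aqp3a* (61 UMIs, 0 in *fabp11a* barcodes, at least 476-fold), *cldn7b* (26 and 0, at least 203-fold), the keratin *krt5* (log2 fold change -8.49 ± 1.16), *cfl1l* (-8.10 ± 1.02), *plekhf1* (-7.35 ± 1.24), *si:ch211-195b11.3* (-9.08 ± 1.16) and *si:cabz01007794.1* (-7.28 ± 1.1). Of 5 basal epidermis genes 3 were lower, and of 5 desmosome genes 2. On the other side, the 10 genes with the largest rise in *fabp11a* barcodes were *vim*, *fsta*, *dbx1a*, *ccn1*, a gene named MFAP4 (1 of many), *boc*, *cxcl18b*, *slc6a9*, *tpm4a* and *cx43*. Each had 0 UMIs in *icn* barcodes. The summed depth of *icn* barcodes was 49003, 23746 and 34377 UMIs in the 3 batches, against 375112, 1207451 and 924158 in the *fabp11a* barcodes. These genes passed the filter on low counts through *fabp11a* barcodes alone. A rare gene can read 0 in such small *icn* sums, so a rise in every batch says little for these genes. *vim*, the intermediate filament vimentin, had 992 UMIs in *fabp11a* barcodes and was at least 14.1-fold higher there, and for the other 9 this bound was 3.73-fold to 14.2-fold. Endothelium genes were hardly measured in these batches: 4 of 22 could be tested and 0 were called, 0 also at an unadjusted p below 0.05 and 0 by DESeq2. Of other lists, 2 of 4 microglia genes (*apoc1* and *ccl34b.1*) and 2 of 4 radial glia genes (*cx43* and *fabp7a*) were higher in *fabp11a* barcodes. So were 1 of 4 barrier genes (*cldn5a*), 1 of 3 meninges genes (*epd*) and 1 of 3 progenitor genes (*pcna*), beside 2.75% of all genes. With at least 3 barcodes of each kind, which added batches 3, 4 and 11, 354 of all 3160 genes tested were higher in *fabp11a* barcodes and 115 lower. In that fit 2 of 9 endothelium genes (*egfl7* and *pecam1*), 5 of 8 barrier genes, 4 of 4 basement membrane genes and 4 of 4 meninges genes were higher. Of the epidermis genes, 16 of 17 were lower.

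This comparison rested on few barcodes. Without batch 2 it gave 9 higher and 14 lower genes of 5808 tested, and without batch 8 it gave 19 and 27 of 2457. In these 2 fits 5 of 6 and 7 of 7 epidermis genes tested were still lower. Of the named genes, 15 could be tested without batch 2 and 8 of them no longer passed. Within the study's upper limits, and without barcodes holding a UMI of *gng8*, *kiss1* or *crygm2d13*, 0 genes were called of 410 tested. Of these, 27 were at an unadjusted p below 0.05, and 0 epidermis genes could be tested.

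Keratin-gate barcodes were compared between ages as sums per batch, 203 barcodes in 4 batches at 6 dpf and 625 in 7 batches at 7 dpf, with the sequencer as a covariate. Of 12506 genes tested with edgeR, 0.0% were called in either direction at an adjusted p below 0.05, with 317 at an unadjusted p below 0.05. DESeq2 also called 0, with 363 at an unadjusted p below 0.05. The epidermis list had the largest median log2 difference of the lists, 3.94 higher at 7 dpf over 18 genes, of which 9 had an unadjusted p below 0.05 and 0 passed the adjustment. Batches 2 and 8, with the highest epidermis levels, were both of that age. The endothelium list had a median of 0.42 over 21 genes, and 0 of them were at an unadjusted p below 0.05.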

How the data were processed

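UMI counts per gene and barcode were made and deposited by the authors with Cell Ranger 7.1.0 on GRCz11 as raw counts, without normalization. Both lanes of batch 11 were added up, and all 25432 genes were kept. The gate, the 20 marker lists and the tests were chosen with earlier results of these data known.

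Counts were read in Python 3.11.15 (scanpy 1.11.5 for clusters, scipy 1.17.1 for exact tests, pandas 2.3.3, numpy 2.4.6, matplotlib 3.10.9 for figures) and summed per batch. Sums were fitted in R 4.3.3 with edgeR 4.0.16 (TMM, filterByExpr, quasi-likelihood test), with DESeq2 1.42.0 as an alternative. Both classes of a batch come from the same pooled larvae, so the batch was the block. The main edgeR fit of each comparison was run on simulated counts, drawn without batch effects. DESeq2 and the other alternative fits were not tested in this way. The SE of an edgeR fold change is an approximation: the absolute log2 fold change divided by the square root of the F statistic. Levels of summed barcodes are UMIs per 10000, unthinned for single genes beside a fold change and thinned for lists, clusters and barcodes chosen by lists.

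Named genes were the 10 with the largest change in each direction among those called and changed the same way in every batch after TMM scaling, up to 5 for age, and in addition the gate genes, the genes of the lists and features whose names start with krt, cyt1, icn or fabp. Keratin and MFAP4 genes belong to families with near copies, and how reads were split between them was not tested. Clusters used 1000 variable genes, 15 components, 15 neighbours and a resolution of 0.5. For batch 8, 1 label line states 6 dpf and the others 7 dpf, which was used. The sequencer of batches 10, 11 and 12 (NovaSeq) was inferred by elimination from the methods. Alternatives were another test, scaling, filter, block, gate, depth and doublet treatment, and each batch left out. Fits within the study's upper limits also left out barcodes with a UMI of *gng8*, *kiss1* or *crygm2d13*. Leaving out barcodes over 50000 UMIs and thinning before summing were chosen after seeing the data. Intervals and floors cover counting error only.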

Additional observations from a re-analysis of the deposited data

Results flagged for a closer look

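In each age group the highest and lowest batch were compared with the rest for 12 quantities, which gave 24 tests, and 2 batches stood apart by Dixon's criterion, which chance meets in about 1 of 20 groups. At 7 dpf, the level of the meninges list in keratin-gate barcodes of batch 11 was 130 UMIs per 10000, and the next batch held 43.2. At 7 dpf, the level of the epidermis list in keratin-gate barcodes of batch 2 was 90.1 UMIs per 10000, and the next, batch 8, held 36.0. Batch 2 also had the highest level of that list among its other barcodes, 11.8.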

How the results depend on the processing

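Against 2473 higher and 3577 lower genes in keratin-gate barcodes, others drawn nearer in depth gave 1617 and 1493, and thinning to 1000 UMIs before summing gave 1455 higher. Leaving out each batch gave 2071 to 2739 higher and 3401 to 3742 lower. Without the replicate block (batch) 1852 and 2425 were called, and upper-quartile scaling, which moved the median of all genes from -0.11 to 0.02 on the log2 scale, gave 2896 and 3135. Endothelium genes rose in 14 (of 15 tested, no block) to 21, barrier genes in 7 to 8 and epidermis genes in 1 to 10 under the 21 alternatives. Barrier genes fell in 0 to 1 and epidermis genes in 0 to 3, and neuron genes fell in 9 of 9 under each. For *fabp11a* against *icn* barcodes (82 higher, 104 lower), DESeq2 gave 32 higher, the fit with no replicate block 14 and 22, the study's upper limits 0 and 0, at least 3 barcodes per kind 354 higher, and thinning 2 and 13. Leaving out a batch gave 9 to 86 higher and 14 to 152 lower. Age calls in keratin-gate barcodes were 0 except with no filter on low counts (39 higher, 37 lower), and leaving out each batch gave 0 to 0 in both directions; no paired analysis was possible because the ages share no batch. The age difference in share ran from 0.992 to 2.04 percentage points when a batch was left out. The ratios of gate genes left out ran from 4.57 to 4.89 (*krt8*), 5.15 to 5.55 (*krt18a.1*), 3.45 to 3.89 (*icn*) and 6.64 to 7.27 (*fabp11a*). The causes of these shifts were not tested. The 39 barcodes with *icn* alone limit that comparison, and genes at a few UMIs per batch could not be compared between ages.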

Other observations

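Other members of the keratin and fatty acid-binding protein families, which were not part of the gate, had a median log2 fold change of -0.12, against -0.11 over all genes. Of 25 features tested whose names start with krt, cyt1, icn or fabp, 5 rose and 3 fell in keratin-gate barcodes, beside 12.8% and 18.6% of all genes. Those that rose beside *krt94* were *fabp7b* (log2 fold change 5.47 ± 0.76), *krt98* (3.47 ± 0.74), *krt18b* (3.33 ± 0.38) and *krt15* (2.85 ± 0.63). *fabp7b*, a brain-type fatty acid-binding protein, was at 0 to 3.62 UMIs per 10000 (median 0.0842) against 0 to 0.0261 in the others, highest in batch 6, where cluster 10 held 5 of its 19 barcodes. *krt96* fell by 3.09 on the log2 scale, beside *cyt1* and *cyt1l*.

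Microglia and ciliated cells gave further values. *fabp11a* was found in 20.7% of the 334 barcodes chosen by microglia genes after thinning, at 2.93 UMIs per 10000, where *krt8* was found in 1.8%, *krt18a.1* in 0.299% and *icn* in 0, against 1.2% before thinning. Of 6 genes of ciliated ependyma 3 rose, beside 12.8% of all genes tested. They were led by the cilium regulator *foxj1a*, higher in 10 of 11 batches. It was at 0.019 to 1.07 UMIs per 10000 (median 0.178) against 0.00625 to 0.123 (log2 fold change 2.65 ± 0.31).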
